A study of Mus musculus with 53 samples.

Results

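A set of 10 genes that the stomach normally expresses was followed through all 53 libraries of the series. The set was drawn up by gene name, from genes described as gastric-type in serrated lesions of the colon, and it makes up 10 of the 55421 genes in the count table. Its members were the mucins Muc5ac and Muc6, the trefoil peptides Tff1 and Tff2, the gastrokine Gkn3, the tight junction protein gene Cldn18, the water channel gene Aqp5, the protease gene Ctse, and Vsig1 and Anxa10. All 10 were found in the table, each under 1 Ensembl identifier.

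In the stomach, surface (pit) cells secrete Muc5ac together with Tff1, and the mucous cells of the glands secrete Muc6 together with Tff2. Goblet cells of the intestine release another mucin and another trefoil peptide, Muc2 and Tff3. Gastric-type gene expression in the intestine is known from metaplasia, where an epithelium takes on features of another organ, and from serrated polyps and tumours of the right colon.

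RNA of whole mouse tissue was sequenced, with the counts per gene deposited as 1 table. Every mouse carried the VilCreER transgene, and the WT mice carried no other engineered allele. The labels of the day 4 and day 30 groups, WT included, state a time after induction, which was by tamoxifen. Those of the tumours, WT proximal colon and WT small intestine do not mention induction. Mice were induced at 6 to 12 weeks of age. The proximal colon groups were BA tumours (VilCreER+ BrafV600E/+ Alk5fl/fl, primary tumours, n = 4) with WT proximal colon (n = 3), and 5 groups taken at day 30 after induction, which were BA (n = 5), BA with antibiotics (n = 5), A (VilCreER+ Alk5fl/fl, n = 4), A with sulindac (n = 4) and WT (n = 4). The antibiotics were ampicillin, neomycin and metronidazole at 1 g/L each and vancomycin at 500 mg/L in the drinking water, and sulindac, a cyclooxygenase inhibitor, was given in the same way at 0.4 g/L for 14 days. The small intestine groups were Apcfl/fl at day 4 after induction (n = 10) with WT at day 4 (n = 6), and Apcfl/+ tumours (n = 5) with WT small intestine (n = 3). The Apcfl/+ tumours and their WT were of an inbred C57BL/6J background and all other mice of a mixed one. The Villin promoter directs the recombinase to intestinal epithelium, so that stroma, muscle and immune cells in these samples were not recombined. In bulk tissue, fewer cells of a type and less RNA per cell cannot be told apart.

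Between 516985 and 32824795 reads per library fell on genes, with a median of 18356939, at which 3 counts correspond to 0.163 CPM (CPM, counts scaled to the library total on genes, are the unit of level used throughout). The lowest total belonged to Apcfl/fl replicate 1. Library labels were checked against tissue markers. Apcfl/+ tumour replicate 2, labelled small intestine, held 0.545 CPM of Gata4, a factor of the proximal small intestine, where the other 4 tumours held 72.9 to 88.0 CPM. The same library held 196 CPM of Car1, a colon carbonic anhydrase, against at most 0.599 CPM in the other 4, while Onecut2, another factor of the proximal small intestine, was within their range (182 CPM against 115.5 to 203.5). Results of the members in Apcfl/+ tumours are therefore given with and without it. BA tumour replicate 2, labelled proximal colon, held 11.5 CPM of Gata4 and 129 and 176 CPM of the brush border enzyme genes Lct and Sis. The other 3 tumours held at most 0.122, 1.06 and 12.9 CPM, and results of the members in BA tumours are likewise given without it. Fits of all other genes include both libraries, and their dependence on them was not tested. Further differences between libraries ran along with groups. The Y-linked gene Ddx3y passed 10 CPM in 3 of 4 BA tumours and 0 of 3 WT proximal colons, in 1 of 5 Apcfl/+ tumours and 3 of 3 WT small intestines, and in every day 30 library. Gm13394, a processed copy of Gapdh, was over 10 CPM in all 18 day 30 libraries of the BA and A groups and 0 of the 4 WT ones, in 3 of 4 BA tumours and 0 of 3 WT proximal colons, and in 3 of 3 WT small intestines and 0 of 5 Apcfl/+ tumours. Neither sex nor sequencing batch is given in the labels.

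The start regions of 2 members are shown because the results in BA mice turned on them, Vsig1 as the member that was higher in BA tumours and in BA colon at day 30, and Anxa10, chosen after its values were seen, as the member with the largest fitted fold change in BA tumours among those that could be tested. Vsig1 lies on chromosome X from 140907608 to 140939472 on the plus strand (GRCm38, GENCODE M21), and Anxa10 on chromosome 8 from 62057042 to 62123150 on the minus strand. The 250 bases before the RefSeq start were taken from chrX:140907358-140907607 (plus strand) and chr8:62123194-62123443 (minus strand) of GRCm38.p6, and are written 5′ to 3′ with matches to the AP-1 motif TGANTCA in capitals.
Vsig1: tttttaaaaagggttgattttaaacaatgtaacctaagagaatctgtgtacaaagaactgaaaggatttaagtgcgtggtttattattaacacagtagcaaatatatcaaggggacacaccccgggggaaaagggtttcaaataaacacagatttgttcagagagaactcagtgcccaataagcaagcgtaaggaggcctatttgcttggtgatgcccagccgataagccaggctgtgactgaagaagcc
Anxa10: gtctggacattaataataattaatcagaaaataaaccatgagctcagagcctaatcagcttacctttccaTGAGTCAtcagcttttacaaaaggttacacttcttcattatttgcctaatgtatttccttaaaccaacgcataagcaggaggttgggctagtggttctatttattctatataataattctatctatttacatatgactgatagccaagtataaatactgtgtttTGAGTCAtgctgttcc
The Anxa10 window held TGAGTCA at 180 to 174 and at 16 to 10 bases before the start, and the Vsig1 window held no match. TGANTCA, which reads the same on both strands, occurred in 6.75% of the 32851 RefSeq windows of this length. No match to the TEAD motif GGAATG (in 12.6% of windows), the CDX motif TTTATG (10.8%), the GATA motif AGATAA (9.99%), the ETS motif CCGGAA (12%) or the TCF motif CTTTGAT (3.21%), searched on both strands, lay in either window, and the TCF motif was added after the data were seen. Of the 10 members 6 were matched to the RefSeq table. A match is a description of the letters and not evidence of binding.

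**Figure D1:**
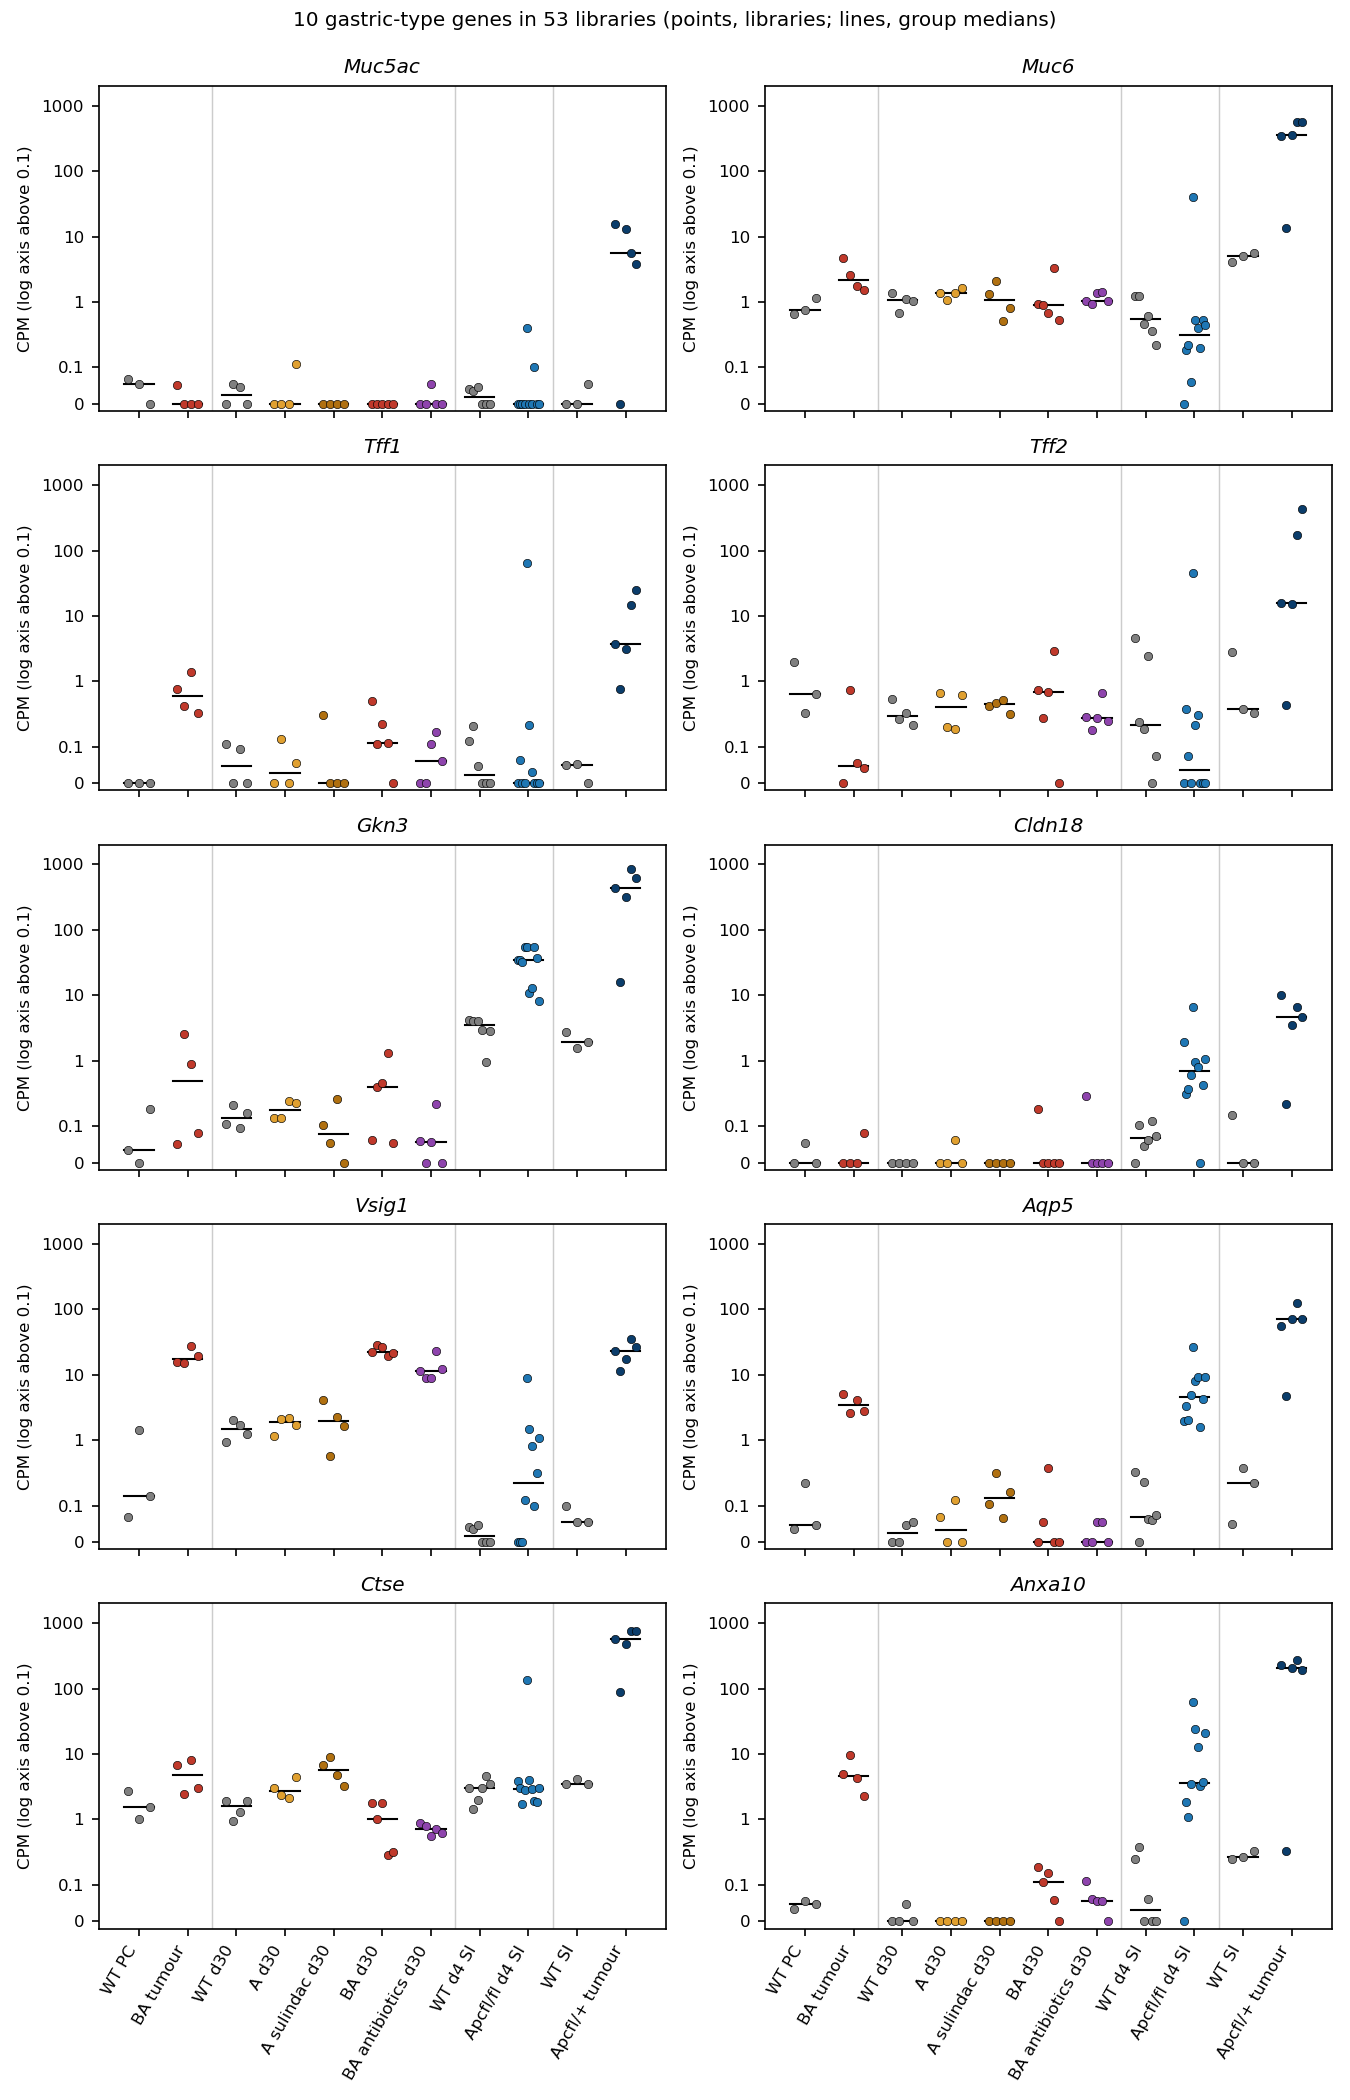
Level of each of the 10 genes in the 11 groups. Each point is 1 library, the horizontal lines are group medians, and the vertical axis gives CPM on a scale that is linear below 0.1 and logarithmic above. The Apcfl/+ tumours hold the highest median in every panel, the BA groups come next for Vsig1, and 1 Apcfl/fl library is the highest of its 10 in every panel.

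BA tumours were compared with WT proximal colon to ask which gastric-type genes accompany tumours driven by Braf V600E and TGFβ-receptor loss. Vsig1, Anxa10 and Aqp5 rose. The mucin, trefoil and gastrokine members were at 4.68 CPM or less in every tumour and were not called by edgeR, although Muc6 and Tff1 were higher in every tumour than in every WT mouse. Vsig1, which encodes a junctional protein of the immunoglobulin superfamily made by gastric epithelium, stood at 15.7, 15.1, 27.5 and 19.6 CPM in the 4 tumours and at 0.0687, 1.42 and 0.139 CPM in the 3 WT mice. The lowest tumour thus lay more than 10 times above the highest WT mouse. The log2 fold change was 5.25 (SE 0.88, edgeR adjusted p = 0.00720). Anxa10, the gene of annexin A10, a calcium-dependent phospholipid-binding protein found mainly in stomach, stood at 4.99, 9.65, 4.23 and 2.27 CPM in tumours. Each WT library held 1 Anxa10 read, so that WT levels were 0.0344 to 0.0545 CPM, and the pooled ratio was 107 with a counting interval of 36.4 to 523 (95%). The edgeR adjusted p for Anxa10 was 0.00248. Aqp5, a water channel of glandular epithelia and of the gastric antrum, on chromosome 15 from 99590782 to 99594829, stood at 5.14, 2.58, 4.07 and 2.80 CPM in tumours and at 0.0344, 0.218 and 0.0463 CPM in WT, without overlap. Its log2 fold change was 5.21 (SE 0.63, edgeR adjusted p = 0.00239).

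Of the 10 members, 3 were called in BA tumours, all higher, in a comparison in which 13.2% of the 19188 genes tested were called and 7.46% were called higher. Anxa10, Aqp5 and Vsig1 had 3, 6 and 31 reads over WT, those of Vsig1 mostly in 1 library. All 3 passed the low-count filter through the tumours, so that hardly anything but a rise could be called. The median log2 fold change of all genes tested was 0.03. Ctse, the gene of cathepsin E, an aspartic protease of gastric surface cells, stood at 6.72, 2.41, 8.13 and 3.00 CPM in tumours and at 2.75, 1.03 and 1.53 CPM in WT, and these ranges overlapped. Its log2 fold change of 1.50 (SE 0.49) had an edgeR adjusted p of 0.0767. Muc6 was at 1.54 to 4.68 CPM in tumours and 0.653 to 1.16 CPM in WT, a difference without overlap that had an edgeR adjusted p of 0.0586. Tff2 was at 0, 0.749, 0.0557 and 0.0406 CPM in tumours and 0.327 to 1.96 CPM in WT, with a log2 fold change of −2.35 (SE 1.17, edgeR adjusted p = 0.228).

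The other 4 members did not pass the low-count filter in this comparison. Tff1 had 15, 5, 25 and 8 reads in the 4 tumours and 0 in each WT library, which makes it at least 16.4-fold higher in the tumours against a floor of 3 counts over the WT group. The counting was not stated to use strand, and 31.4% of Tff1 exon bases lie under the antisense gene Gm15318. Gkn3, a secreted peptide of stomach glands, varied among the tumours, at 0.0509, 2.58, 0.891 and 0.0812 CPM. Muc5ac had 1 read in all tumours together and 3 in WT, and Cldn18 had 2 and 1, so neither was detectable at this depth. By CPM alone, 5 of the 10 members (Muc6, Tff1, Aqp5, Vsig1 and Anxa10) were higher in every tumour than in every WT mouse, where 12.4% of all genes tested, which do not include Tff1, were.

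The calls in BA tumours depended in part on the fit. DESeq2 called 7 members higher (Ctse, Muc6, Tff1 and Gkn3 besides those 3), beside 8.01% of genes with an adjusted p, as did edgeR without the low-count filter, beside 4.71%. Without tumour 2, which held small intestinal markers and the highest Anxa10, Gkn3 and Tff2 of the 4, Vsig1 (5.28), Anxa10 and Aqp5 (5.26) remained called and Ctse joined them (1.64, edgeR adjusted p = 0.0442), beside 9.4% of genes called higher. With a term for Ddx3y reads, Vsig1 kept a log2 fold change of 4.63 but lost its call (edgeR adjusted p = 0.0814), while Anxa10 and Aqp5 remained called (0.0374 and 0.0205). Vsig1 is X-linked, and the part of sex in its difference was not tested further. Leaving out WT replicate 2 gave Vsig1 a log2 fold change of 7.58, and it was called in 7 of 7 fits that left out 1 library. Immune markers (10 genes, summed) were at 630 to 1262 CPM in tumours against 311 to 340 CPM in WT, and stromal and endothelial markers at 4395 to 5806 against 1869 to 2529 CPM, and their part in these differences was not tested. The epithelial markers overlapped, at 11960 to 18040 CPM in tumours and 14280 to 16800 CPM in WT.

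BA colon at day 30 after induction was compared with WT colon of the same day, and Vsig1 was the 1 member called. It stood at 21.9, 28.6, 26.3, 19.4 and 21.8 CPM in the 5 BA mice (23.6 ± 3.76, SD, n = 5) and at 0.923, 2.02, 1.69 and 1.24 CPM in the 4 WT mice (1.47 ± 0.484, SD, n = 4). Even the lowest of the BA mice held more Vsig1 than any WT mouse. The log2 fold change was 4.14 (SE 0.21), a 17.6-fold difference with an edgeR adjusted p of 1.06e-07. The fits that left out 1 library in turn gave 3.96 to 4.33 and called Vsig1 in 9 of 9. Anxa10 and Aqp5, which were high in the tumours, were near the floor here, with 8 and 6 reads over the 5 BA libraries and 1 and 2 over the 4 WT libraries.

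In this comparison 1 of the 10 members was called, higher in BA, against 25.8% of 17471 genes called higher and 55.1% called in all, and the median log2 fold change over all genes was −0.03. Besides Vsig1, 3 members could be tested. Muc6 had a log2 fold change of 0.44 (edgeR adjusted p = 0.470), Ctse of −0.43 (0.472) and Tff2 of 1.58 (0.137). Muc6 and Tff2 were highest in the same mouse, BA replicate 4, with 3.34 and 2.94 CPM against 0.538 to 0.928 and 0 to 0.742 CPM in the other 4 BA mice. Without that mouse the Muc6 log2 fold change was −0.31. Muc5ac had 0 reads in all 5 BA libraries, and Cldn18 had 3 reads in 1 of them. Tff1 and Gkn3 had 15 and 38 reads over the BA libraries and 4 and 11 over WT. Epithelial markers summed to 25030 to 27950 CPM in BA and 13580 to 16380 CPM in WT, without overlap. Stromal and endothelial markers were lower, at 1034 to 1348 CPM against 1637 to 1979 CPM, and smooth muscle markers at 1145 to 4447 CPM against 6306 to 7012 CPM, also without overlap. The part of these markers in the Vsig1 difference was not tested. All 5 BA libraries and none of the 4 WT libraries held Gm13394 over 10 CPM, so that genotype and this property cannot be told apart here.

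**Figure D2:**
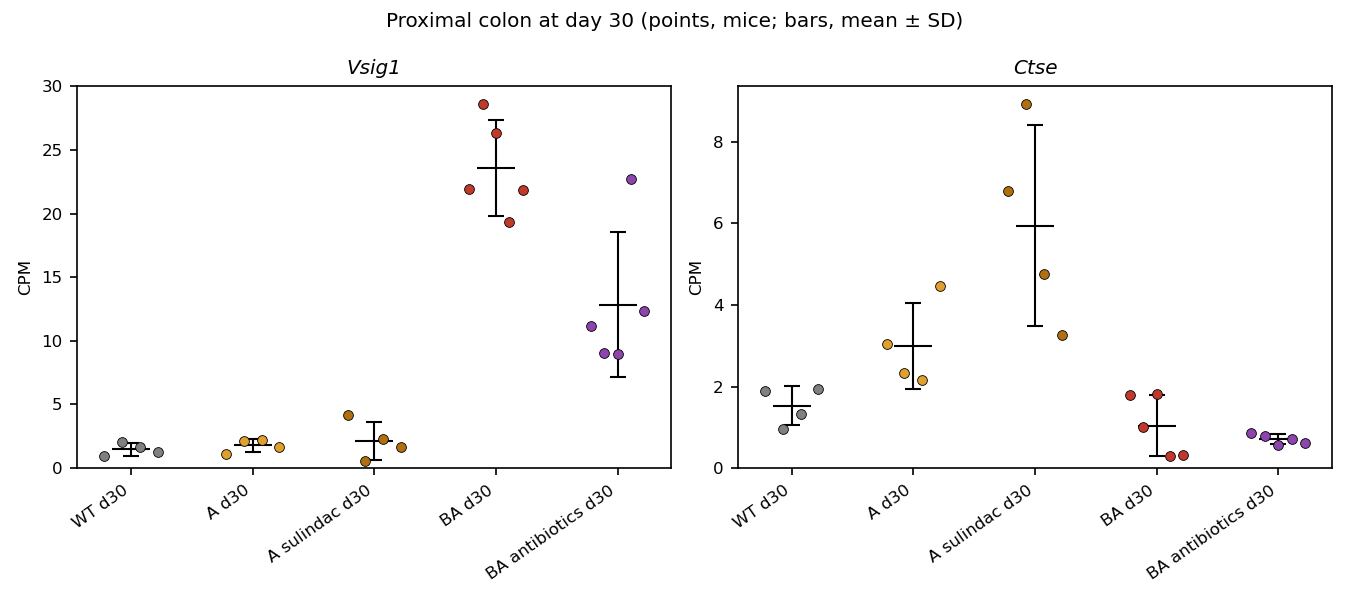
Vsig1 and Ctse in the 5 groups of proximal colon at day 30. Points are libraries, and the bars show the mean and SD in CPM. Vsig1 is at 8.95 CPM or more in all 10 BA libraries and at 4.15 CPM or less in the 12 libraries of the other 3 groups, and Ctse is highest in A with sulindac.

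In A colon, which lacks Alk5 and has no Braf allele, Vsig1 was at the level of WT colon. It stood at 1.15, 2.13, 2.21 and 1.67 CPM (1.79 ± 0.490, SD, n = 4), which overlapped WT, and BA exceeded A by a log2 fold change of 3.94 (SE 0.20, edgeR adjusted p = 3.34e-07). Gm13394 was over 10 CPM in every library of both of these groups. In A against WT, 3 of the 10 members could be tested. Of these, 0 were called and 0.141% of 17713 genes were, with 1717 genes at an unadjusted p under 0.05. DESeq2 called 0 members as well. A colon with sulindac held 4.15, 0.578, 2.26 and 1.66 CPM of Vsig1, a range that took in all 4 A mice. Against A, 0 of the 3 members tested and 0 of 17568 genes were called by edgeR, with 460 genes at an unadjusted p under 0.05 and 8 called by DESeq2.

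Ctse took another order across the day 30 groups. It stood at 6.80, 8.93, 4.77 and 3.27 CPM in A with sulindac, 3.04, 2.33, 2.15 and 4.46 CPM in A, 1.90, 0.956, 1.32 and 1.94 CPM in WT, 1.79, 1.01, 1.81, 0.288 and 0.323 CPM in BA and 0.869, 0.795, 0.556, 0.719 and 0.613 CPM in BA with antibiotics. A with sulindac and A overlapped, as did BA and WT, while every A mouse was above every WT mouse. In A with sulindac against WT the log2 fold change was 1.95 (SE 0.34) with an edgeR adjusted p of 0.124. There, 0 of the 3 members tested and 0.0507% of 17742 genes were called, with 1607 genes at an unadjusted p under 0.05. By CPM, Ctse and Aqp5 (12 reads against 2) were higher in every A mouse with sulindac than in every WT mouse, as 1.51% of the genes tested were. Aqp5 did not pass the filter and was not among those genes. DESeq2 called Ctse there (adjusted p = 1.46e-05), and so did edgeR without the low-count filter (0.0137). A against WT gave Ctse 0.94 (edgeR adjusted p = 0.476), although the 2 groups did not overlap, as 5.24% of all genes tested did not. Ctse was lower in BA than in A by a log2 fold change of −1.33 (SE 0.48, edgeR adjusted p = 0.0408), a call that held in 3 of 9 fits with 1 library left out. In that comparison of BA with A, 2 of the 4 members tested (Vsig1 and Ctse) and 45.3% of 17128 genes were called.

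Vsig1 was lower in BA colon under antibiotics than without them, and still above WT. The 5 BA mice given antibiotics held 11.2, 9.05, 8.95, 22.7 and 12.3 CPM (12.9 ± 5.71, SD, n = 5). Replicate 4 lay within the range of untreated BA mice and the other 4 below it. Against untreated BA the log2 fold change was −0.93 (SE 0.23, edgeR adjusted p = 0.0245), with 13.0% of 16680 genes called, and the call held in 6 of 10 fits with 1 library left out. With all 5 day 30 groups in 1 fit it was lost (edgeR adjusted p = 0.0846). Against WT, BA with antibiotics was higher by 3.22 (SE 0.35, edgeR adjusted p = 5.99e-05), without overlap. Ctse was lower in BA with antibiotics than in WT by −0.98 (SE 0.26, edgeR adjusted p = 0.0139), so that 2 of the 3 members tested were called there beside 39.6% of 17569 genes. With all 5 day 30 groups in 1 fit the call of Ctse was lost (edgeR adjusted p = 0.0889) and that of Vsig1 held, beside 34.6% of genes. Epithelial markers summed to 23760 to 31530 CPM under antibiotics, above every WT mouse and overlapping untreated BA, and replicate 3 held 8124 CPM of stromal and endothelial markers where the other 4 held 1113 to 1717 CPM. Their part in these differences was not tested. Muc6 was at 0.918 to 1.44 CPM under antibiotics and was not called.

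Apcfl/+ tumours were set against WT small intestine to show the same genes in tumours that arise through the Wnt pathway. All 10 members passed the low-count filter and all 10 were called higher, where 31.4% of the 20567 genes tested were called higher and 61.5% were called in all. Muc5ac, Tff1, Cldn18 and Vsig1 had 1, 2, 3 and 4 reads over the WT libraries, and Aqp5 and Anxa10 had 12 and 16. Tff2 had 69 reads over WT, with a median of 0.375 CPM and 2.79 CPM in the highest library. All of these members passed the filter through the tumours, so that hardly anything but a rise could be called for them. Among the secreted products, Muc6 stood at 348, 13.7, 357, 555 and 571 CPM in the 5 tumours and 4.14 to 5.60 CPM in WT. Its log2 fold change was 6.26 (SE 1.15, edgeR adjusted p = 0.00168). Gkn3 stood at 439, 15.9, 321, 850 and 626 CPM against 1.55 to 2.79 CPM. Tumour 2 was far below the other 4 in both genes and yet above WT. Gkn3 rose by 7.78 (SE 1.31, edgeR adjusted p = 0.00107).

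Muc5ac, the mucin of gastric pit cells, stood at 15.8, 0, 13.0, 5.69 and 3.83 CPM in tumours, and 1 read was counted over the 3 WT libraries. The pooled Muc5ac ratio was 435 with a counting interval of 77.9 to 17200. Its pit-cell partner Tff1 stood at 3.79, 0.763, 3.09, 14.9 and 25.2 CPM with 2 reads over WT, a pooled ratio of 308 (85.0 to 2540). Muc5ac was highest in tumours 1 and 3, and Tff1 in tumours 4 and 5, so the highest tumours were not the same for these pit-cell genes. Tff2 was likewise highest in tumours 4 and 5, at 15.9, 0.436, 15.0, 174 and 427 CPM, and rose by 6.75 (SE 2.15, edgeR adjusted p = 0.0232). Of the members, Tff2 had the least stable call, held in 6 of 8 fits with 1 library left out and lost with a term for Ddx3y reads (3.79, edgeR adjusted p = 0.224).

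Ctse reached 571, 89.6, 477, 752 and 750 CPM in tumours against 3.48 to 4.18 CPM in WT, and rose by 7.17 (SE 0.82, edgeR adjusted p = 0.000167). Vsig1 stood at 23.3, 11.4, 17.4, 34.6 and 26.6 CPM against 0.0536 to 0.0998 CPM, with the smallest coefficient of variation among tumours of the 10 members (38.9%). It rose by 8.24 (SE 0.62, edgeR adjusted p = 2.75e-05). Anxa10 stood at 233, 0.327, 204, 270 and 191 CPM against 0.249 to 0.326 CPM. Tumour 2 was thus at the WT level of Anxa10, and the log2 fold change over all 5 was 9.33 (SE 1.91, edgeR adjusted p = 0.00295). Aqp5 rose by 8.27, from 0.0499 to 0.375 CPM in WT to 4.74 to 126 CPM. Cldn18, a claudin with a stomach and a lung isoform that counts per gene do not separate, was at 10.2, 0.218, 3.55, 6.67 and 4.66 CPM with 3 reads over WT.

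Tumour 2, the library low in Gata4, held the lowest value of all 10 members among the 5 tumours. Its 10 members summed to 137 CPM, against 1480 to 2790 CPM in the other 4. Without it all 10 members were again called higher, beside 35.8% of genes, with log2 fold changes from 6.57 (Muc6) to 9.65 (Anxa10), and Tff2 reached 7.06 (edgeR adjusted p = 0.00368). With all 5 tumours, 8 of the 10 members were higher in every tumour than in every WT mouse, as 31.5% of the genes tested were. Anxa10 was among the 8 by 0.327 against 0.326 CPM, no more than a tie, and Muc5ac and Tff2 overlapped through tumour 2. Parietal and chief cell markers (5 genes, summed) were at 8.34 to 80.3 CPM in the tumours and 0.910 to 1.69 CPM in WT. The tumours also held more stroma, at 3081 to 4625 CPM of 10 markers against 1234 to 1543 CPM. The part of these cells in the differences was not tested.

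Acute Apc loss was examined at day 4 in the small intestine, where 4 of the 10 members were called, all higher (Gkn3, Anxa10, Aqp5 and Cldn18), beside 27.5% of 17536 genes called higher and 54.2% called in all. Anxa10, Aqp5 and Cldn18 had 18, 16 and 8 reads over the 6 WT libraries and passed the low-count filter through the Apcfl/fl libraries. Gkn3, on chromosome 6 from 87383256 to 87388935, ranged from 8.13 to 54.6 CPM with a median of 34.6 CPM in the 10 Apcfl/fl mice, and from 0.958 to 4.15 CPM with a median of 3.47 CPM in the 6 WT mice. These groups did not overlap, and the log2 fold change was 3.13 (SE 0.50, edgeR adjusted p = 6.20e-05). Aqp5 ranged from 1.6 to 26.3 CPM with a median of 4.59 CPM against 0 to 0.329 CPM, again without overlap, and rose by 5.46 (SE 0.75, edgeR adjusted p = 1.66e-05). Anxa10 ranged from 0 to 61.9 CPM with a median of 3.62 CPM, and the 1 library at 0 was replicate 1, which had few reads. Anxa10 rose by 6.27 (SE 1.13, edgeR adjusted p = 0.000192) and Cldn18 by 3.90 (SE 0.95, edgeR adjusted p = 0.00232). By CPM, 2 members (Aqp5 and Gkn3) were higher in every Apcfl/fl mouse than in every WT mouse, as 12.6% of genes were.

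Apcfl/fl replicate 5 held the highest value of every member. Its 10 members summed to 443 CPM where the other 9 libraries held 38.2 to 65.8 CPM. Ctse was at 135 CPM in this library and 1.69 to 4.02 CPM in the other 9, Tff1 at 64.4 against 0 to 0.215 CPM, Tff2 at 45.2 against 0 to 0.375 CPM, and Muc6 at 39.7 against 0 to 0.538 CPM. Gkn1 and Gkn2, stomach genes outside the set, were also high in it, at 45.9 and 15.0 CPM against at most 1.08 and 0.359 CPM. Without replicate 5, Gkn3 (3.03), Anxa10 (5.56) and Aqp5 (4.95) remained called, Cldn18 no longer passed the low-count filter, and the Ctse log2 fold change turned from 2.24 (edgeR adjusted p = 0.0750) to −0.36. Vsig1, Muc5ac, Muc6, Tff1 and Tff2 were not tested in the full comparison. Vsig1 had 387 reads in Apcfl/fl, 3 of the 10 libraries being at 0, and 3 reads in WT, a pooled ratio of 83.6 (28.4 to 407) to which replicate 5 contributed the highest level, 8.87 CPM.

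The level of Anxa10 in Apcfl/fl also varied among the other 9 libraries, at 23.8, 12.7 and 21.2 CPM in replicates 6, 7 and 10 and at most 3.80 CPM in the other 6. The same 3 replicates had the lowest Gkn3 of the group, 8.13 to 12.7 CPM, and the highest Vsig1 after replicate 5, 1.47, 0.823 and 1.07 CPM. In WT at day 4, replicates 1 to 3, with Gm13394 under 10 CPM, held 16.6 to 26.2 CPM of Pdx1 and 83.7 to 122.7 CPM of Onecut2, and replicates 4 to 6, with Gm13394 over 10 CPM, 0.807 to 0.898 and 31.3 to 49.9 CPM, so the WT libraries of these subsets differed in factors of the proximal small intestine. The libraries with Gm13394 under 10 CPM, which form a smaller comparison, gave Anxa10 a log2 fold change of 2.83 (edgeR adjusted p = 0.00416) and those over it (Apcfl/fl replicates 5 to 10) 9.38 (edgeR adjusted p = 0.00289). The difference between these subsets, and the part of the regional factors in it, was not tested. Over all libraries Pdx1 was at −1.63 in Apcfl/fl (edgeR adjusted p = 0.0523) and Onecut2 at 0.17 (0.635). Gkn3 rose by 2.90 and 3.60 in the same subsets. The chief cell enzyme gene Pgc was at 6.71 to 21.9 CPM in Apcfl/fl and 0.660 to 1.55 CPM in WT, and so accounted for most of a parietal and chief cell sum of 8.50 to 23.7 CPM against 1.04 to 2.58 CPM. Lipf, which marks chief cells, had 0 reads in all 16 of these libraries.

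**Figure D3:**
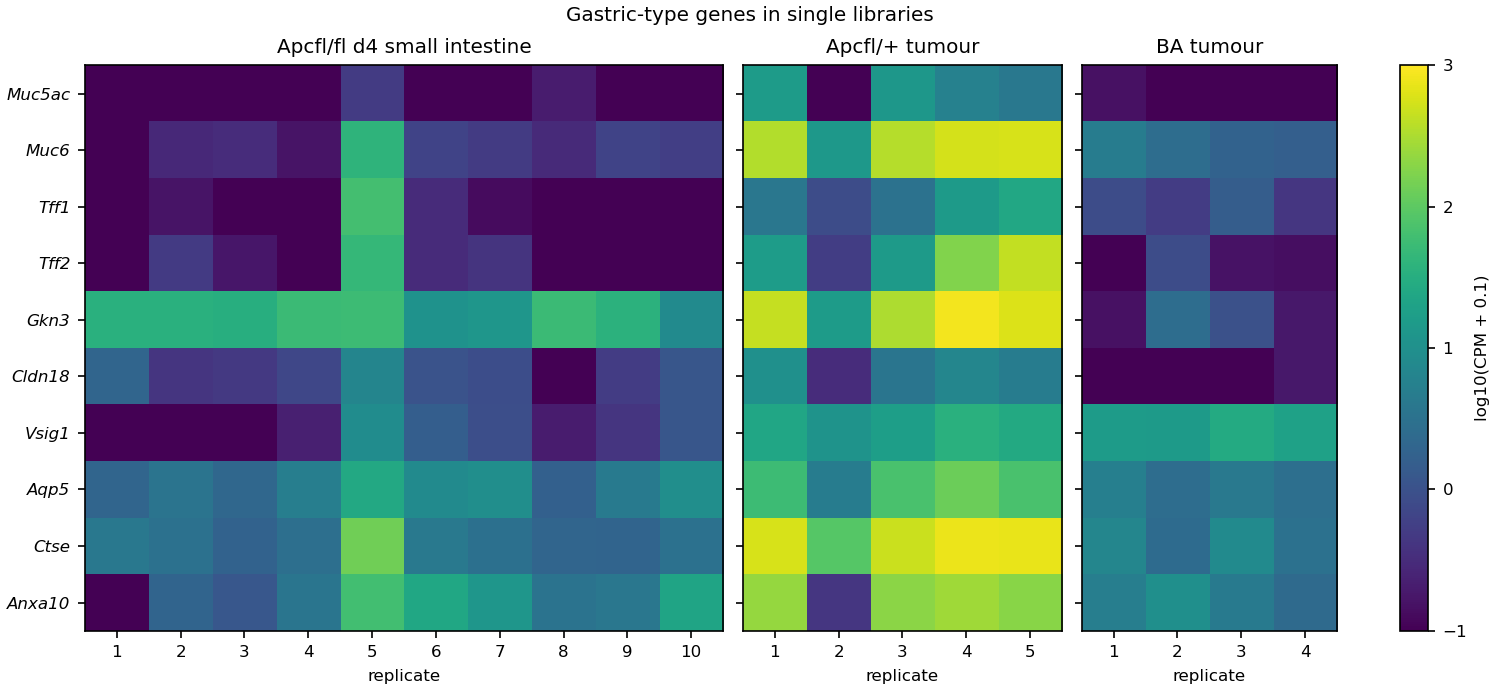
The 10 genes in each library of the Apcfl/fl, Apcfl/+ tumour and BA tumour groups, coloured by log10 of CPM plus 0.1. Apcfl/fl replicate 5 is the brightest column of its group for all 10 genes, Apcfl/+ tumour replicate 2 is the darkest of its group for all 10, and the BA tumours are bright for Vsig1, Anxa10, Aqp5 and Ctse.

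Differences between these effects were tested directly, each group being set against its own WT. Tissue, background and WT group differ along with genotype in these contrasts and cannot be told apart from it. The effect in BA tumours was smaller than in Apcfl/+ tumours by −5.65 for Ctse (SE 0.86, edgeR adjusted p = 0.000401), by −4.62 for Muc6 (SE 1.18, edgeR adjusted p = 0.00811) and by −9.34 for Tff2 (SE 2.62, edgeR adjusted p = 0.0128). These 3 were the members called, beside 39.7% of 21668 genes, and they were also the 3 called without BA tumour 2, beside 46.6% of genes. The difference for Vsig1 was −2.95 (edgeR adjusted p = 0.0698), for Anxa10 −2.48 (0.654) and for Aqp5 −2.97 (0.226). Without Apcfl/+ tumour 2, 6 members were called, beside 44.9% of genes, as Muc5ac, Vsig1 (−3.21, edgeR adjusted p = 0.0421) and Aqp5 (−3.39, edgeR adjusted p = 0.0203) joined them. No size is given for Muc5ac, whose reads in BA tumours and WT colon were at the floor.

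Between BA tumours and BA colon at day 30, 7 of the 10 members could be tested. Of these, 0 differed in effect by edgeR's quasi-likelihood test, with 16.3% of 20637 genes called and 6315 genes at an unadjusted p under 0.05. The Vsig1 effects of 5.25 and 4.14 differed by 1.14 (edgeR adjusted p = 0.321). Anxa10 differed by 4.28 (edgeR adjusted p = 0.295) and Aqp5 by 3.77 (edgeR adjusted p = 0.224), so their presence in tumours and near absence at day 30 did not pass as a difference in effect. Without BA tumour 2, 2 members were called, Ctse (2.13, edgeR adjusted p = 0.0464) and Tff2 (−6.27, edgeR adjusted p = 0.0104), beside 24.7% of genes. Without the low-count filter Tff2 was called (−4.13, edgeR adjusted p = 0.0390), and 0 members were called by the likelihood ratio test. Between Apcfl/+ tumours and acute Apc loss, Ctse (4.84, edgeR adjusted p = 0.0315) and Gkn3 (4.66, edgeR adjusted p = 0.00256) were called, beside 24.7% of 22202 genes. Without Apcfl/fl replicate 5, 6 members were called, beside 25.8% of genes, as Muc6 (7.60), Tff2 (10.1), Tff1 and Muc5ac joined Ctse and Gkn3.

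**Figure D4:**
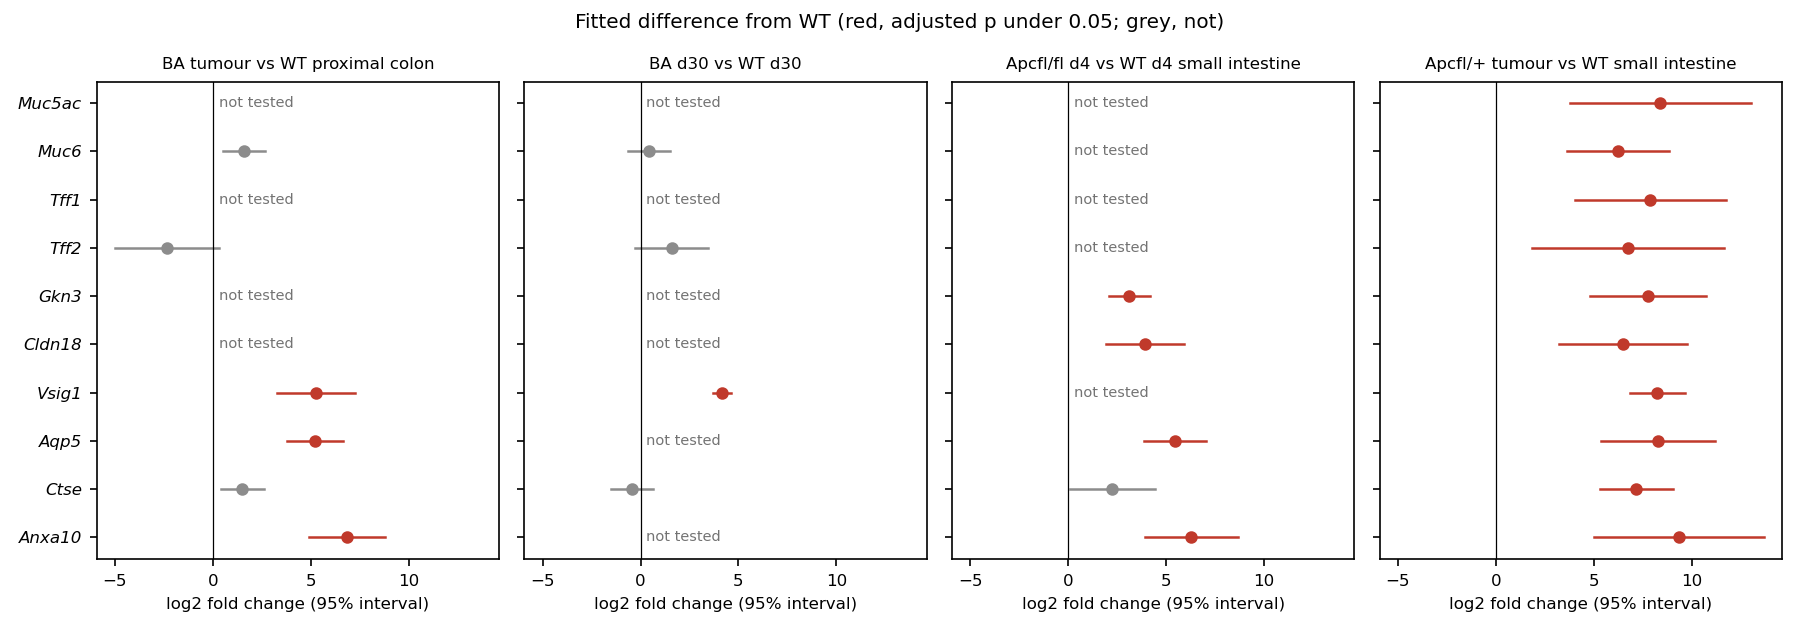
Log2 fold change of each gene against WT, with 95% intervals, in BA tumours, BA colon at day 30, Apcfl/fl at day 4 and Apcfl/+ tumours. Red marks an adjusted p under 0.05, grey marks values that did not pass, and genes that failed the low-count filter are written as not tested. All 10 genes are red in Apcfl/+ tumours, 4 in Apcfl/fl, 3 in BA tumours and 1 (Vsig1) in BA colon at day 30, and sizes for Anxa10 in BA tumours and for Muc5ac, Tff1 and Cldn18 in Apcfl/+ tumours rest on 3 or fewer WT reads.

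Levels were compared between genes per kilobase of exon. In BA tumours Vsig1 was highest with a median of 6.38 CPM per kilobase, followed by Anxa10 (2.01), Ctse (1.53) and Aqp5 (1.32). In Apcfl/+ tumours the order was another one, led by Gkn3 with 513 CPM per kilobase, Ctse with 180, Anxa10 with 89.1 and Muc6 with 38.1, while Vsig1 was seventh with 8.43. In BA colon at day 30 Vsig1 stood at 7.91 CPM per kilobase. By the median CPM of a group, Vsig1 was ordered as Apcfl/+ tumours (23.3), BA at day 30 (21.9), BA tumours (17.7) and BA with antibiotics (11.2), whose ranges all overlapped, then A with sulindac (1.96), A (1.90) and WT at day 30 (1.47), which also overlapped. Apcfl/fl (0.219), WT proximal colon (0.139), WT small intestine (0.0544) and WT at day 4 (0.0174) were the lowest.

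The genes most like Vsig1 over the 22 day 30 libraries, by Spearman's rho of log2 CPM among 18659 genes, were Zfp53 (0.966), Krt13 (0.93), Susd1 (0.93), Gjb2 (0.928) and Ywhag (0.927). The 22 libraries fall into BA and other groups, so this likeness describes a shared contrast between them. Krt13 encodes a keratin of stratified epithelia and Gjb2 a gap junction protein, connexin 26. Aqp5, which tied with Anxa10 as the member called in the most comparisons after Vsig1 and was taken for its higher median level, did not pass the low-count filter over these libraries.

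The gastric secretory genes lie beside intestinal genes of the same families, which were compared with them. On chromosome 7 of GRCm38, Muc6 (141633456 to 141655319), Muc2 (141690340 to 141754693), Muc5ac (141788972 to 141819231) and Muc5b (141839070 to 141873084) lie in a row, and on chromosome 17 Tff3 (31125306 to 31129646), Tff2 (31141049 to 31144282) and Tff1 (31161395 to 31165277) do. In Apcfl/+ tumours, where all 4 gastric members of these clusters rose, Muc2 fell by 0.87 (edgeR adjusted p = 0.0162) and Muc5b, a mucin of airway and salivary glands, fell by 2.20 (edgeR adjusted p = 0.00105). Tff3 had a log2 fold change of −0.32 there (edgeR adjusted p = 0.374). In Apcfl/fl, Muc2 fell by 1.96 (edgeR adjusted p = 5.23e-05), and none of the 4 gastric members passed the low-count filter of edgeR. DESeq2, which called 7 members there beside 40.2% of genes with an adjusted p, called Muc6 (−1.35) and Tff2 (−3.54) lower. Their pooled reads went the other way, 9.36-fold higher in Apcfl/fl for Muc6 and 5.95-fold for Tff2, with replicate 5 far above the other Apcfl/fl libraries. The cause of these opposite signs was not tested. In BA tumours Muc2 (−0.78), Tff3 (−0.47) and Tff2 (−2.35) were not called, and in BA colon at day 30 Muc2 and Tff3 were at −0.05 and 0.15, also not called. Whether neighbouring genes differed in their changes was not tested.

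Other stomach genes gave a mixed picture. Of a list of 20, 10 were tested in BA tumours, 2 rose and 2 fell, beside 7.46% of genes called higher and 13.2% in all. The median log2 fold change was −0.14 against 0.03 for all genes. The surface protein gene Psca, at 0.0509, 1.91, 1.00 and 2.36 CPM in tumours with 0 reads in all WT libraries (at least 31.0-fold higher), and the forkhead factor gene Foxq1 (3.61, edgeR adjusted p = 0.00248) rose. Sult1c2, a sulfotransferase gene of stomach (−3.65, edgeR adjusted p = 0.00332), and A4gnt, the enzyme that caps gastric gland mucin with terminal N-acetylglucosamine (−1.97, edgeR adjusted p = 0.0241), fell. The same 4 genes were the ones called in BA colon at day 30, of 8 tested, beside 55.1% of all genes. Psca was at 3.09, Foxq1 at 1.31, Sult1c2 at −3.72 and A4gnt at −2.06. WT proximal colon held 26.1 to 46.3 CPM of A4gnt and 48.6 to 117 CPM of Sult1c2, so both are also genes of the normal mouse colon. Gkn1 was at 0.284 to 1.17 CPM in the 4 tumours and 0 in the 3 WT mice and was not tested. In Apcfl/+ tumours 13 of the 20 were tested, 8 rose and 2 fell, beside 31.4% of genes called higher and 61.5% in all. The median was 3.18 (also with Gkn2 and Lipf below at their bounds). Pgc (5.72) and Atp4a (5.24), markers of chief and parietal cells, were among the 8, as were Gkn1, at 0.872 to 90.6 CPM in tumours and 0 to 0.0998 CPM in WT, and Gkn2 and Lipf, which had 0 reads in WT and were at least 118-fold and 44.2-fold higher, and Ghrl (−1.13) and Capn9 (−0.77) were the 2. Gkn1, Gkn2 and Lipf, near or at 0 in WT, passed the low-count filter through the tumours, so that hardly anything but a rise could be called for them. In Apcfl/fl 9 were tested, 4 rose, led by Pgc (3.07), and 3 fell, led by Capn9 (−2.09). There, 27.5% of all genes were called higher and 54.2% in all.

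Genes of pyloric-type metaplasia and regeneration, a list of 6 that were all tested, had 2 higher and 0 lower in BA tumours, Clu (4.79, edgeR adjusted p = 0.00128), the gene of clusterin and a mark of regenerating epithelium, and Cd44 (1.12, edgeR adjusted p = 0.00892). The median over the 6 was 0.42, and 7.46% of all genes were called higher in that comparison. In BA colon at day 30, 2 were higher (Sox9 at 0.43 and Cd44 at 0.23) and 3 lower, among them Wfdc2 (−1.37). Beside them, 25.8% of genes were called higher and 55.1% in all. The list median was −0.12, and Clu was at 0.16 and not called. In Apcfl/+ tumours 5 were higher, with Clu at 5.66 and Wfdc2 at 5.58, beside 31.4% of genes called higher. In Apcfl/fl 4 were higher and 1 (Dmbt1, −1.60) was lower, beside 27.5% of genes called higher and 54.2% in all. The list medians were 1.89 in Apcfl/+ tumours and 2.01 in Apcfl/fl. Of 6 intestinal identity factors, 0 were called in BA tumours, beside 13.2% of genes, with a median of −0.47. Cdx2, whose loss is tied to gastric change in the intestine, was at −0.87 (SE 0.33, edgeR adjusted p = 0.117). BA tumour 2 held 77.3 CPM of Cdx2, against 221.5 to 269.8 CPM in the other tumours. In BA colon at day 30, Hnf4a rose by 0.69, and the list median was −0.10. Hnf4g fell in Apcfl/+ tumours (−2.20) and, with Isx (−0.46), in Apcfl/fl (−1.71), where the list medians were −0.38 and −0.37. Cdx2 was not called in either, and stood at −0.28 in Apcfl/fl.

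Of the proximal small intestine factors, Pdx1, which is also a factor of the gastric antrum, and Onecut2 rose in BA tumours, by 2.71 (edgeR adjusted p = 0.0290) and 6.18 (edgeR adjusted p = 0.00864), and in BA colon at day 30, by 3.67 and 5.19. Pdx1 stood at 3.00, 1.33, 2.73 and 0.690 CPM in the tumours, above the 0.109 to 0.510 CPM of WT proximal colon, and Gata4, the last gene of this list of 3, did not pass the filter there. In Apcfl/+ tumours Pdx1 stood at 3.26, 0.817, 2.03, 17.3 and 36.4 CPM against 0.299 to 0.490 CPM in WT and rose by 5.02 (edgeR adjusted p = 0.0151). The highest Pdx1 levels fell in tumours 4 and 5, the same ones that were highest in Tff1 and Tff2. Markers of pancreatic acinar cells (5 genes) summed to 535 CPM in 1 Apcfl/+ tumour and 692 CPM in 1 WT small intestine, with Cpa1 over 10 CPM in 1 library of each group. Without those libraries all members but Tff2 (7.21, edgeR adjusted p = 0.0613) stayed called in Apcfl/+ tumours, beside 23.5% of genes called higher. In WT at day 4 the sum reached 668 CPM, and Cpa1 was over 10 CPM in 2 of 6 libraries and in 0 of 10 of Apcfl/fl. Without those 2 libraries Gkn3 (3.21), Anxa10 (6.42), Aqp5 (6.01) and Cldn18 (3.54) remained called in Apcfl/fl and Vsig1 joined them, beside 20.6% of genes called higher.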

How the data were processed

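RNA was extracted with a Qiagen RNeasy kit from proximal colon or small intestine, and paired reads of 36 bases were sequenced on an Illumina NextSeq from TruSeq libraries. Per the submitters' processing notes, the authors checked reads with FastQC 0.11.8, trimmed them with Trim Galore 0.6.4, aligned them to GRCm38 with HISAT2 2.1.0 and counted them on genes with featureCounts 1.6.4. The deposited values are raw counts per Ensembl gene, without normalisation. The strand setting and the handling of reads with several places are not given in the sources used here. Up to 0.12% of the 36-base words of a member's exons occurred in another gene, except for Tff1 (22.1%, most in the antisense gene Gm15318). The table held 55421 genes, of which 55154 had a symbol in GENCODE M21. No column was left out.

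Libraries were grouped by the labels. Each comparison was fitted on its own 2 groups by edgeR 4.0.16 (filterByExpr, TMM factors, quasi-likelihood F test, two-sided), with Benjamini-Hochberg adjustment over all genes tested and a threshold of 0.05. Differences between effects were contrasts of 4 group means in the same kind of fit. Standard errors and 95% intervals are those of the fit. CPM are scaled by the library total. A floor is 3 counts, and floors and intervals of pooled ratios cover counting error only. With 1 library per mouse and no culture or batch given, p-values measure the spread between these libraries. Alternatives were RLE scaling, no low-count filter, the likelihood ratio test of edgeR, the Wald test of DESeq2 1.42.0, a joint fit of all 5 day 30 groups, a block for replicate number, a term for Ddx3y reads and each library left out. Terms and subsets for Gm13394 and Cpa1 reads, and contrasts of effects without Apcfl/+ tumour 2, BA tumour 2 or Apcfl/fl replicate 5, were added after the data were seen. In simulated counts of the same designs, the fit recovered 45.5% (the difference between BA and Apcfl/+ tumour effects) to 95% (BA at day 30) of changed genes, with 2.96% to 8.21% of calls false. The changed genes were a small random share of those passing the filter, all changed by the same size. These rates need not hold for members near the floor, or where a large share of genes differ. Scripts ran in R 4.3.3 and Python 3.11.15.

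The members and the lists of other genes were chosen with earlier results of these data known. All members could be named, as could the locus neighbours, and, of every other list, the extremes by log2 fold change within each comparison plus at most 5 further genes that were called. Genes most like the 2 members called in the most comparisons with WT were named, and the promoter of members called in both BA comparisons. Gkn1 in BA tumours and Apcfl/fl, Gkn2 in Apcfl/fl, Cdx2, Wfdc2 in BA colon, and Gata4, Onecut2, Pdx1, Lct, Sis, Car1, Ddx3y, Gm13394 and Cpa1 as checks of libraries fall outside that rule or were picked after their values were seen. Values of 1 gene of these lists are not reported here.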

Additional observations from a re-analysis of the deposited data

Results flagged for a closer look

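In Apcfl/fl small intestine at day 4, replicate 5 lay far from the other 9 libraries in 8 members, at 39.7 CPM for Muc6, 64.4 for Tff1, 45.2 for Tff2, 6.61 for Cldn18, 26.3 for Aqp5, 135 for Ctse, 8.87 for Vsig1 and 61.9 for Anxa10. In BA colon at day 30, replicate 4 lay apart for Muc6 (3.34 CPM) and Tff2 (2.94 CPM), and under antibiotics replicate 4 lay apart for Vsig1 (22.7 CPM). Of 46 groups of values searched, 11 held such a value, and 8 of the 11 belong to 1 library. About 5% would by chance if values were normal and independent. Members share libraries and their CPM are skewed, so that this rate need not hold here.

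The effect against WT differed between BA tumours and Apcfl/+ tumours, by an interaction term in edgeR, for Ctse (−5.65), Muc6 (−4.62) and Tff2 (−9.34, all on the log2 scale and smaller in BA tumours). Between Apcfl/+ tumours and acute Apc loss it differed for Ctse (4.84) and Gkn3 (4.66), both larger in Apcfl/+ tumours. Without Apcfl/fl replicate 5 the difference for Ctse was 7.47 and for Gkn3 4.76, and both remained called.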

How the results depend on the processing

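Over 71 results for single members, 806 values under alternatives were computed, of which 744 kept their direction and their side of the threshold, 29 gained a call, 22 lost one and 11 changed sign. RLE scaling changed no call of a member. In BA tumours, 3 members were called, and 7 without the filter, 7 by DESeq2 and 5 by the likelihood ratio test, while 2527 genes were called in all, 168 with the Ddx3y term and 696 (without WT replicate 1) to 3641 with 1 library left out. In A against WT, 25 genes were called, 72 without the filter, 134 by DESeq2, 106 by the likelihood ratio test and 15 to 28 with 1 library left out. For A with sulindac against WT, 0 members became 1 under each of these 3 alternatives, and 9 genes became 24, 109 and 106, 29 with all 5 day 30 groups and 4 to 18 with 1 library left out. Against A, 0 genes became 1, 8 and 5. With all 5 groups in 1 fit, members called in BA with antibiotics went from 2 to 1 against WT and from 1 to 0 against BA, where 2172 genes became 1074, and 1300 to 2683 with 1 library left out, with 0 to 1 members. BA against A kept 1 to 2 members with 1 library left out. In Apcfl/fl, DESeq2 called 7 members against 4, with Muc6 (−1.35) and Tff2 (−3.54) lower and Vsig1 higher, and the libraries with Gm13394 over 10 CPM gave 5490 genes against 9504. In Apcfl/+ tumours the Ddx3y term gave 7030 genes against 12650. The difference between BA and Apcfl/+ tumours held 3 members, 5 without the filter and 6 by the likelihood ratio test. Without Apcfl/+ tumour 2 it held 6, beside 44.9% of genes. That between BA tumours and day 30 held 0, 1 without the filter and, without BA tumour 2, 2 beside 24.7% of genes. That between Apcfl/+ tumours and Apcfl/fl held 2, and without Apcfl/fl replicate 5 it held 6, beside 25.8% of genes. Counts of members in this section with no share of all genes beside them describe the fits and are not results on the members.

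With the replicate number as a block, genes called went from 2527 to 848 in BA tumours, from 9 to 2 in A with sulindac against WT, from 0 to 1 in A with sulindac against A, from 12650 to 8211 in Apcfl/+ tumours and from 2172 to 1284 in BA with antibiotics against BA. Under that block, members called went from 4 to 2 in Apcfl/fl, from 10 to 6 in Apcfl/+ tumours, from 2 to 1 in BA with antibiotics against WT and from 1 to 0 against BA, and Muc6 turned to 0.051 there. Equal numbers stand for different mice, and in no comparison did every same-numbered pair correlate above 0.1 (lowest −0.44, highest 0.23), so the samples share only a number. Every library correlated best with its own number in none of the comparisons.

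Signs also turned without 1 library. The log2 fold change of Muc6 then ran from −0.306 to 0.636 in BA against WT at day 30, from −0.557 to 0.347 in BA against A and from −0.382 to 0.555 in BA with antibiotics against BA, each turning without BA replicate 4. It ran from −0.180 to 0.424 in A with sulindac against WT and from −0.509 to 0.128 against A, and Vsig1 from −0.237 to 0.663 against A. Ctse in Apcfl/fl ran from −0.359 (without replicate 5) to 2.39, and was at −0.337 by DESeq2 and −0.109 in libraries with Gm13394 under 10 CPM. None of the values with a turned sign was called, and the cause was not tested. Genes with 3 or fewer reads in both groups of a comparison, Muc5ac and Cldn18 in colon above all, could not be compared at this depth. Where only the WT group had 3 or fewer reads, the size of a difference rests on those reads.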
